A study of Mus musculus with 12 samples.

Results

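The 10 BCL2 family genes described here set the balance between survival and death of a cell at its mitochondria. They were followed in leukemic bone marrow cells while the transcription factor PU.1, encoded by Spi1, was restored over days. The genes were chosen by symbol, found through their Entrez identifiers, and make up 10 of the 27179 genes counted. Of the 10, 9 had enough counts to be tested among 12057 genes, and Bcl2a1b did not. The cells are AML246, a cytogenetically normal C57BL/6 mouse acute myeloid leukemia that is p53-/- and carries a hairpin against PU.1 (shPU.1) linked to GFP. Doxycycline (Dox) shut off the hairpin and its GFP in leukemic recipient mice. Bulk RNA-seq was made from GFP-sorted bone marrow cells in 4 groups of 3 libraries. The untreated group was sorted as GFPhigh, the group on Dox for 2 days as GFPhigh-mid, that on Dox for 4 days as GFPmid and that on Dox for 6 days as GFPlow. All groups share the p53 loss and the hairpin, all cells come from the leukemia AML246, and no group had Dox without the hairpin. The sort gate moved with the days, so gate and time on Dox cannot be told apart. The titles call the replicates technical while the design text speaks of triplicate mice, so every p-value here reflects variation among these libraries, and that variation may be technical.

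Libraries held 4918920 to 7356166 counts. Levels are given as CPM, the counts of a gene relative to its library total with edgeR's TMM factors applied, and 3 counts came to 0.408 to 0.61 CPM on the unscaled total. Spi1 stood at 62.5 ± 7.28 CPM (SD, n = 3) in untreated cells, 109.5 ± 12 at day 2, 259.8 ± 14.1 at day 4 and 457.6 ± 33.9 at day 6, with no overlap between neighbouring groups. Day 6 replicate 2 stood apart from the other day 6 libraries, with a chi-square per gene of 41.0 and 35.8 against them, compared with 4.53 between those 2 and 2.53 to 9.89 within the other groups. The day 6 tests and class sums were therefore also computed without it. All 8 genes of the list for the labelled myeloid identity had counts in all libraries, and their sum was 22310 to 25660 CPM in untreated cells and 9144 to 12200 at day 6. At day 6, 3 of them were called lower (Mpo, Elane and Kit) and 5 higher (Spi1, Ptprc, Cd33, Csf1r and Itgam). The summed level of 10 maturing neutrophil markers was 595.8 to 1659 CPM in untreated cells and 592.6 to 1706 at day 2. It was then 2411 to 4799 CPM at day 4 and 62850 to 136900 at day 6, where replicate 2 was the lowest. The sum of 9 monocyte and macrophage markers was 134.7 to 220.6, 383.9 to 507.1, 1438 to 1976 and 801.3 to 1893 CPM in the same order, and here day 6 replicate 2 was the highest. Sums of markers of other marrow cells were lower than these 2 sums within the same library. They came to 0.9102 to 30.98 CPM for T and NK cells, with the highest in day 6 replicate 2, and 8.48 to 84.13 for B cells. For eosinophils the sum was 8.798 to 818.4 CPM, with the highest in day 4 replicate 2. The part of these shifts in the results below was not tested. In bulk samples a change in how many cells of a kind are present and a change in RNA per cell cannot be told apart.

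Proteins of the BCL2 family act on the mitochondrial outer membrane. The effectors BAX and BAK form pores that release cytochrome c, and the released protein starts a cascade of caspases. Survival members such as BCL2, BCL-XL and MCL1 hold the effectors and their activators in a surface groove, while BH3-only proteins such as BIM, BID, BAD and BMF insert a short helix into that groove. Neutrophils and their precursors are known to depend on MCL1 and to use BFL1/A1, the product of the Bcl2a1 genes.

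The helix that gives the BH3-only proteins their name is shown for the 6 death genes because it is what survival and death members share. Its core was searched in the translated coding sequence of each gene as leucine, then 3 residues of any kind, then glycine, alanine or serine, then aspartate. Each of the 9 tested members held exactly 1 match in its longest coding sequence (GENCODE M21 on GRCm38), and Bcl2a1b held 0. The core is short, and 7354 of 21760 coding genes (33.8%) held at least 1 match, so a match is a description and not a site. The stretches of 33 coding bases below run 5′ to 3′ on the coding strand, with the leucine codon and the codons of the small residue and aspartate in capitals.
Bcl2l11 (chr2:128147144-128147176, plus strand): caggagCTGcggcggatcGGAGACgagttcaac
Bmf (chr2:118545100-118545132, minus strand): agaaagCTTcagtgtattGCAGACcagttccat
Bid (chr6:120897289-120897321, minus strand): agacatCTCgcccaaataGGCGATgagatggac
Bad (chr19:6950786-6950818, plus strand): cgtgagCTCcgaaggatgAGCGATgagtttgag
Bax (chr7:45465997-45466029, minus strand): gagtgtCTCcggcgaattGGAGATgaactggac
Bak1 (chr17:27022531-27022563, minus strand): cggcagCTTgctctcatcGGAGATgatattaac
The matches in the coding sequences of the 3 tested survival genes are shown in the same way.
Bcl2 (chr1:106712575-106712607, minus strand): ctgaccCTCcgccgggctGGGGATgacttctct
Bcl2l1 (chr2:152829697-152829729, minus strand): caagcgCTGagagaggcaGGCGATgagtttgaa
Mcl1 (chr3:95659430-95659462, plus strand): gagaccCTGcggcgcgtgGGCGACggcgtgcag

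Bcl2 fell while Mcl1 and Bcl2l1 rose, so the survival genes did not move as a class. Genes were called at an adjusted p under 0.05 by edgeR's quasi-likelihood test, fitted on all 12 libraries and adjusted over 12057 genes. At day 2, 0 of the 9 tested members passed in either direction, where 1.05% of all genes were called higher and 0.406% lower. The count was also 0 with DESeq2 and limma voom, and Bcl2l1 alone had an unadjusted p under 0.05 (0.0455). At day 4 all 9 were called, 8 higher and 1 lower, where 22.1% of all genes were called higher and 20.2% lower. At day 6, 5 were called higher and 1 lower, against 35.0% and 32.9% of all genes. The 3 comparisons share the untreated libraries. The median log2 change of the 3 tested survival genes was 0.70 at day 4 and 1.38 at day 6, that of the 4 BH3-only genes 0.82 and 0.56, and that of the effectors 0.58 and 0.26, beside -0.01 and 0 over all tested genes.

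**Figure D1:**
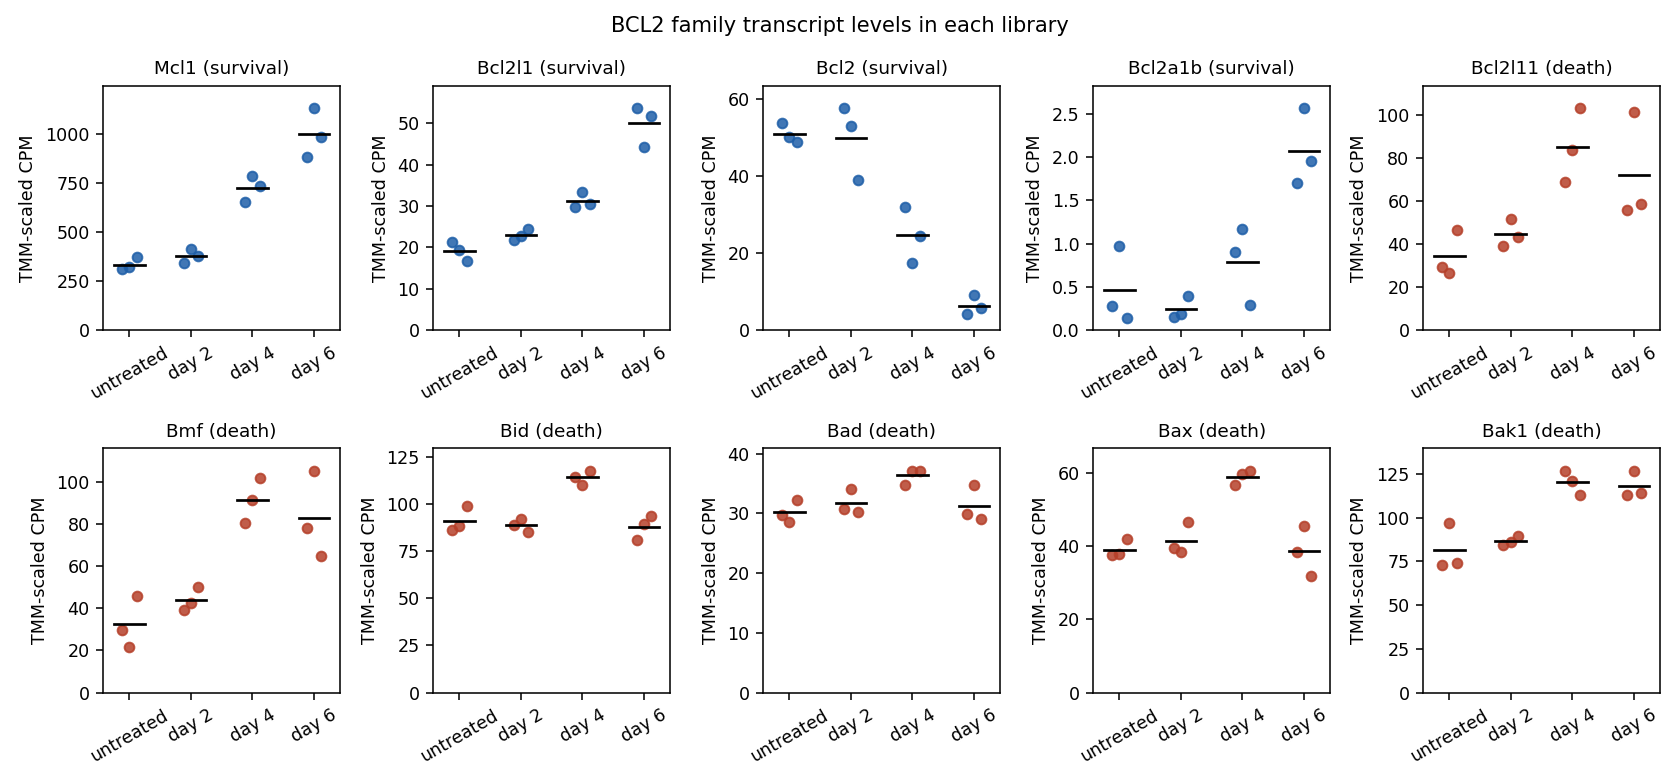
TMM-scaled CPM of the 10 genes in each of the 12 libraries by day of Dox. Each point is a library, each line the mean of 3, and each panel has its own axis from 0. Mcl1 and Bcl2l1 step up and Bcl2 steps down. Each death gene has its highest mean at day 4, where Bcl2l11, Bmf and Bak1 overlap with day 6.

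Mcl1 (ID 17210, chr3:95656944-95663179), a short-lived survival protein that binds BAK and BIM, was the most abundant member. Its level was 310, 321.3 and 370.2 CPM in untreated cells and 344, 410.8 and 374.9 at day 2. It was 654.9, 783.4 and 734.9 CPM at day 4 and 881.5, 1132 and 983.5 at day 6. Untreated and day 2 libraries overlapped, and every later library lay above every library of the day before it. The log2 change was 1.12 ± 0.12 (SE; adjusted p = 1.66e-05) at day 4 and 1.58 ± 0.12 (adjusted p = 2.33e-07) at day 6, a 2.99-fold higher mean CPM. From day 4 to day 6 it rose by 0.46 ± 0.12 (adjusted p = 0.00624), which was 0.07 and no longer called with library totals in place of TMM factors.

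Bcl2l1 (ID 12048, chr2:152758732-152833803) encodes BCL-XL in its long form and a death-promoting short form, which gene counts do not separate. It had 21.39, 19.32 and 16.64 CPM in untreated libraries and 21.84, 22.85 and 24.35 at day 2. It reached 29.67, 33.35 and 30.49 CPM at day 4 and 53.67, 44.31 and 51.86 at day 6. No neighbouring groups overlapped. Against untreated the log2 change was 0.27 ± 0.12 at day 2 (adjusted p = 0.336), 0.70 ± 0.12 at day 4 (adjusted p = 0.000521) and 1.38 ± 0.12 at day 6 (adjusted p = 6.56e-07), the last a 2.61-fold higher mean CPM. Between day 4 and day 6 the rise of 0.68 ± 0.12 (adjusted p = 0.00052) had an adjusted p of 0.052 with library totals.

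Bcl2 (ID 12043, chr1:106538176-106714290), the founding survival gene of the family, moved in the opposite direction. It stood at 53.82, 50.19 and 48.78 CPM in untreated libraries and 57.64, 53.02 and 38.88 at day 2. It had 32.07, 17.47 and 24.34 CPM at day 4 and 4.26, 9.15 and 5.654 at day 6. Day 2 libraries lay around the untreated ones, while every day 4 library was below them and every day 6 library below day 4. In the fit its log2 change was -1.05 ± 0.23 at day 4 (adjusted p = 0.0033) and -2.97 ± 0.27 at day 6 (adjusted p = 1.62e-06), an 8.01-fold lower mean CPM. Without day 6 replicate 2, which had the highest Bcl2 of its group, the day 6 change was -3.35 (adjusted p = 1.05e-06).

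Bcl2a1b (ID 12045, chr9:89199273-89207838) encodes A1, an inducible survival protein of blood cells. It had 2, 7 and 1 counts in untreated libraries and 1, 1 and 3 at day 2, then 6, 8 and 2 at day 4. The day 6 libraries held 8, 16 and 10 counts. Most earlier libraries were at or near 3 counts, and no fold is given. All day 6 libraries held more counts than any untreated or day 2 library, and day 4 overlapped both. The gene has near-identical copies, Bcl2a1a, Bcl2a1c and Bcl2a1d, and 57.6% of the 50-base windows of its transcript occur in at least 1 of them. For windows of 75 and 100 bases the share was 43.5% and 31.1%. How reads that match several copies were counted is not given in the sources used here, so the split between copies is uncertain. The first 48 coding bases are shown because they hold 6 of the 12 positions among 516 coding bases at which the a, b and d copies differ, and these positions are in capitals.
Bcl2a1b (chr9:89199360-89199407, plus strand): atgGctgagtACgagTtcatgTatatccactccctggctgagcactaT
Bcl2a1a (chr9:88957051-88957098, plus strand): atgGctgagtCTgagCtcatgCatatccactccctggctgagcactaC
Bcl2a1d (chr9:88731672-88731719, minus strand): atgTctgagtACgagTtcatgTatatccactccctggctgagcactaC
Over all 516 coding bases, Bcl2a1b is 97.9% identical to Bcl2a1a and 98.8% identical to Bcl2a1d. Bcl2a1c had 0 counts in all 12 libraries, which allows up to 3 counts in each. Summed over the copies, the counts were 2, 12 and 2 in untreated libraries and 1, 2 and 3 at day 2. The day 4 libraries had 13, 20 and 8, and the day 6 libraries 18, 36 and 19. As a single row in the fit, the copies were higher at day 6 by 2.54 ± 0.55 on the log2 scale (edgeR adjusted p = 0.00124) and by 2.30 without day 6 replicate 2 (adjusted p = 0.00313). The day 4 value of 1.4 ± 0.59 was not called (adjusted p = 0.0729).

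The BH3-only genes formed 2 kinds of pattern. Bcl2l11 and Bmf rose over 2-fold by day 4 and were still called higher at day 6, while Bid and Bad rose slightly at day 4 and were not called different from untreated at day 6. All 4 were called higher at day 4, against 22.1% of all genes, and 2 of 4 at day 6, against 35.0%. The day 4 calls of Bid and Bad were lost with library totals.

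Bcl2l11 (ID 12125, chr2:128126038-128162547) encodes BIM, which binds all survival members and activates BAX and BAK. Its level was 29.46, 26.69 and 46.63 CPM in untreated libraries and 39.13, 51.74 and 43.2 at day 2, then 68.94, 83.58 and 103.1 at day 4. The day 6 libraries stood at 55.8, 101.5 and 58.3. The day 4 and day 6 libraries all exceeded the untreated ones but overlapped each other. The log2 change was 1.32 ± 0.27 at day 4 (adjusted p = 0.00244) and 1.08 ± 0.27 at day 6 (adjusted p = 0.00411). Day 6 replicate 2 lay well above the other day 6 libraries, and without it the day 6 change was 0.74 (adjusted p = 0.0203). With library totals it was 0.58 and not called (adjusted p = 0.093).

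Bmf (ID 171543, chr2:118528757-118549686) encodes a BH3-only protein held on the cytoskeleton in healthy cells. It stood at 29.88, 21.83 and 45.77 CPM in untreated libraries and 38.98, 42.6 and 50.14 at day 2. The day 4 libraries had 80.48, 91.45 and 101.9, and the day 6 libraries 78.16, 105.3 and 64.93. Day 4 and day 6 libraries lay above all earlier ones and overlapped each other, with day 6 replicate 2 again the highest of its group. Against untreated the log2 change was 1.49 ± 0.24 at day 4 (adjusted p = 0.000555) and 1.35 ± 0.24 at day 6 (adjusted p = 0.000424). It was 1.14 without day 6 replicate 2 (adjusted p = 0.00266).

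Bid (ID 12122, chr6:120893119-120917062) links death receptors to mitochondria once caspase-8 has cleaved it. It had 86.39, 88.28 and 98.85 CPM in untreated libraries and 88.89, 92.14 and 85.09 at day 2, then 114.5, 110.1 and 117.7 at day 4. The day 6 libraries stood at 80.93, 89.41 and 93.79. Only the day 4 libraries stood clear of the others. In the fit its log2 change was 0.32 ± 0.08 at day 4 (adjusted p = 0.00783), which was 0.21 and not called with library totals (adjusted p = 0.0849), and -0.05 ± 0.08 at day 6 (adjusted p = 0.617).

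Bad (ID 12015, chr19:6941861-6951905) encodes a sensitizer that growth factor signals silence by phosphorylation. Its level was 29.74, 28.5 and 32.28 CPM in untreated libraries and 30.79, 34 and 30.24 at day 2. The day 4 libraries had 34.77, 37.13 and 37.09, and the day 6 libraries 29.82, 34.67 and 29.05. The day 4 libraries were the highest, by a small margin. The day 4 change of 0.27 ± 0.10 (adjusted p = 0.0478) was called in 7 of 22 alternative analyses, and the test over the 4 groups together did not call the gene (adjusted p = 0.11). At day 6 the log2 change was 0.05 ± 0.10 (adjusted p = 0.679).

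The effectors Bax and Bak1 rose together at day 4 and parted at day 6. Bax (ID 12028, chr7:45461695-45466903), which is known to wait in the cytosol of healthy cells, had 37.53, 37.95 and 41.89 CPM in untreated libraries and 39.44, 38.57 and 46.61 at day 2. It had 56.8, 59.7 and 60.69 CPM at day 4 and 38.55, 45.59 and 31.98 at day 6. Only day 4 lay outside the range of the other groups. The log2 change was 0.59 ± 0.12 at day 4 (adjusted p = 0.00199) and -0.01 ± 0.12 at day 6 (adjusted p = 0.938).

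Bak1 (ID 12018, chr17:27019812-27028627) encodes the effector that sits on mitochondria at rest. It had 72.94, 97.18 and 74.32 CPM in untreated libraries and 84.49, 86.1 and 89.68 at day 2, then 126.8, 120.9 and 113 at day 4. The day 6 libraries stood at 112.7, 126.5 and 114.1. Day 4 and day 6 overlapped, and both lay above all earlier libraries. Against untreated the log2 change was 0.56 ± 0.11 at day 4 (adjusted p = 0.00133) and 0.53 ± 0.11 at day 6 (adjusted p = 0.000818).

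**Figure D2:**
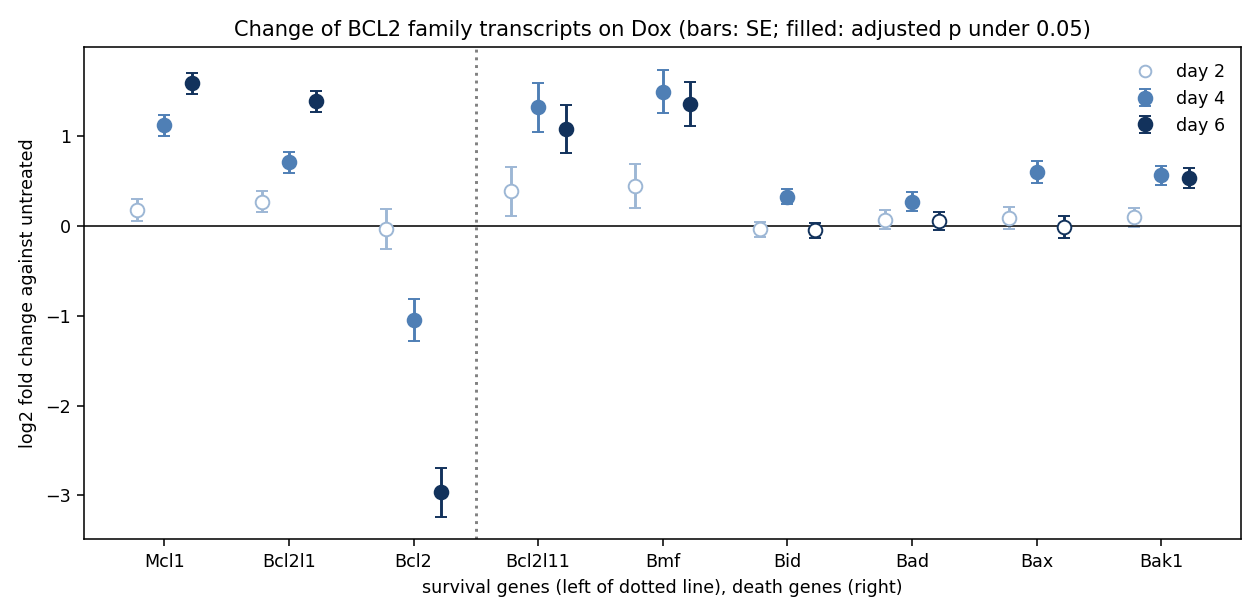
Log2 fold change of the 9 tested members against untreated at days 2, 4 and 6, with standard errors; filled points passed an adjusted p of 0.05 in edgeR's quasi-likelihood test. Bcl2 falls to -2.97 at day 6, Mcl1 and Bcl2l1 climb to 1.58 and 1.38, and Bid, Bad and Bax are near 0 at day 6.

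In the step from day 2 to day 4, 7 of the 9 tested members were called higher, against 15.0% of all genes, and Bcl2 was called lower, against 10.2%. Bad was not called (0.20 ± 0.10, adjusted p = 0.17). With library totals this step had 2 members higher and 1 lower, against 10.4% and 19.2% of all genes. The step from day 4 to day 6 then had 0 higher and 5 lower, against 11% and 51.9%. With TMM factors, Mcl1 and Bcl2l1 were called higher from day 4 to day 6, against 23.6% of all genes. Bcl2 (-1.92 ± 0.28), Bid (-0.37 ± 0.08) and Bax (-0.61 ± 0.12) were called lower, against 22.6%, with adjusted p-values of 0.000218, 0.00323 and 0.00178. In this step no death gene was called higher, and Bcl2l11, Bmf and Bak1 differed by -0.24, -0.14 and -0.03. The test of the later step against the earlier one called 0 members higher, against 6.25% of all genes, and 2 lower (Bid and Bax), against 7.84%. Without day 6 replicate 2 that test called 8 lower, and without untreated replicate 2 it called 4. The shares of all genes under these omissions are not given here. Over the 4 groups together 8 of 9 members were called, against 68.7% of all genes.

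The scaling of the day 6 libraries moves these calls. TMM factors were 1.02 to 1.15 before day 6 and 0.737, 0.847 and 0.749 at day 6. With library totals the median of all genes at day 6 shifted by -0.51 on the log2 scale and with upper-quartile scaling by -0.25, and the share of called genes that were higher went from 51.6% to 25.3% and 37.3%. At day 4 that share went from 52.2% to 39.1% with library totals and 41.2% with upper-quartile scaling. Library totals left 6 members called higher at day 4 and 1 lower, against 17.3% and 27% of all genes. With library totals, Mcl1, Bcl2l1 and Bmf remained called higher at day 6 at 1.08, 0.86 and 0.85, and Bcl2 remained lower at -3.47. Bak1 was then at 0.02 and not called. Bid, Bad and Bax were called lower at -0.56, -0.46 and -0.52, where 56.1% of all genes were called lower. Upper-quartile scaling also called Bid lower at day 6, at -0.30 (edgeR adjusted p = 0.00623), where 44.1% of all genes were called lower.

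Levels of different genes were compared per transcript length, as RPKM (the CPM per kilobase of deposited gene length). In untreated cells Mcl1 stood first at 95.7 ± 9.17 RPKM. Bid (48.2 ± 3.55), Bax (45.0 ± 2.77) and Bak1 (40.7 ± 6.80) followed and overlapped one another. Bad (20.8 ± 1.33) came next. Below it, Bcl2l1 (8.06 ± 1.00) and Bcl2 (6.57 ± 0.335) each overlapped Bmf (7.01 ± 2.63) and Bcl2l11 (6.80 ± 2.14). Every Bcl2l1 library lay above every Bcl2 library. Bcl2a1b was last at 0.611 ± 0.581. At day 6 the order was Mcl1 (286.4 ± 36.1), Bak1 (58.8 ± 3.8), then Bid (46.6 ± 3.46) and Bax (44.5 ± 7.83), which overlapped. Bad (21.5 ± 2.10), Bcl2l1 (21.1 ± 2.10), Bmf (17.9 ± 4.44) and Bcl2l11 (14.3 ± 5.10) formed an overlapping run. Bcl2a1b (2.72 ± 0.583) lay above Bcl2 (0.820 ± 0.325), which was now last, with no overlap between their libraries.

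Set side by side, the summed level of the 4 survival genes lay below that of the 6 death genes in untreated cells and above it at day 6. The survival sum was 110.9 ± 7.63, 124.4 ± 9.55, 225 ± 18.5 and 311 ± 34.9 RPKM in untreated cells and at days 2, 4 and 6. The death sum was 168.5 ± 10.4, 178.2 ± 5.84, 250 ± 6.24 and 203.5 ± 22.7 RPKM in the same order. Both sums depend on the scaling. With library totals the death sum was 181.3, 183.9 and 196.8 in untreated libraries and 141.4, 194.5 and 141.6 at day 6. The survival sum was then 120.6, 117.8 and 131.6 in untreated libraries. It was 212.7, 247.4 and 232.4 at day 4 and 204.9, 294.4 and 230.1 at day 6, so those days overlapped. The ratio of the sums within a library, which does not depend on library scaling, was 0.6656, 0.6409 and 0.6684 in untreated libraries and 0.6715, 0.7513 and 0.6714 at day 2. It was 0.8418, 0.9729 and 0.8851 at day 4 and 1.449, 1.514 and 1.625 at day 6. No day 4 or day 6 library overlapped an earlier group, and only at day 6 was the ratio above 1. Without day 6 replicate 2 the mean day 6 ratio was 1.54. These are descriptions of chosen genes with no test.

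**Figure D3:**
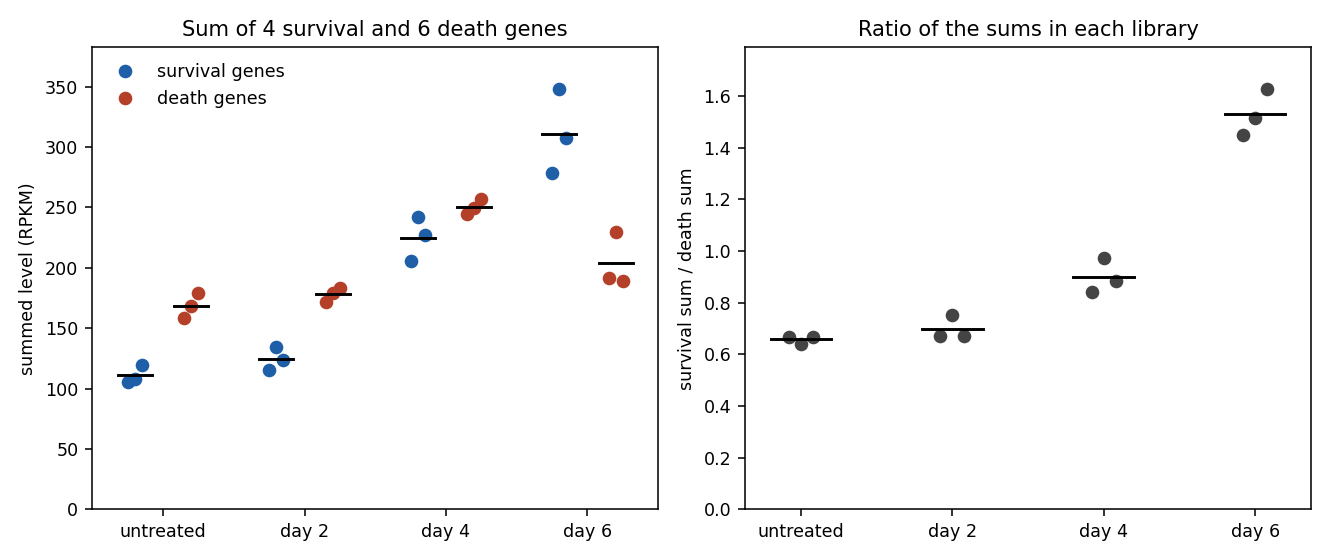
Left, summed RPKM of the 4 survival and 6 death genes in each library; right, their ratio in each library, with lines at the means of 3. The survival sum passes the death sum between day 4 and day 6, where the mean ratio goes from 0.900 to 1.53.

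The sum mostly reflects Mcl1, which made up 86.2% ± 2.25 of the survival sum in untreated cells and 92.0% ± 1.24 at day 6. The share of Bcl2 went from 5.95% ± 0.67 to 0.258% ± 0.0732. Without Mcl1, the other 3 genes of that sum came to 15.2 ± 1.53 RPKM in untreated cells, 16.5 ± 0.571 at day 2, 17.4 ± 0.836 at day 4 and 24.6 ± 1.19 at day 6. Bcl2l2, a tested survival gene that is not among the members, is left out of these sums. It stood at 9.82 ± 0.678 RPKM in untreated cells, 9.78 ± 0.672 at day 2, 7.88 ± 0.33 at day 4 and 8.655 ± 1.44 at day 6. In untreated cells its mean lay above those of Bcl2l1 and Bcl2. Within the death sum, Bmf went from 4.13% ± 1.36 to 8.70% ± 1.24 and Bcl2l11 from 4.00% ± 1.05 to 6.89% ± 1.64. Bid went from 28.6% ± 0.797 to 23.0% ± 2.90.

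Ratios of a survival gene to a death gene in the same library were tested by exact permutation, two-sided, where 3 against 3 libraries cannot go below 0.1. There were 9 such tests, adjusted together. Bcl2 to Bax per length was 0.1608, 0.1483 and 0.1306 in untreated libraries and 0.01239, 0.02251 and 0.01983 at day 6. All day 4 and day 6 libraries were lower than all untreated ones, by 1.69 and 3.05 on the log2 scale in the mean (log2 differences of -1.686 and -3.046, exact permutation p = 0.1, adjusted 0.225 for both). Bcl2l1 to Bad went from 0.4403, 0.4152 and 0.3157 to 1.102, 0.7825 and 1.093 at day 6, a log2 difference of 1.343 with no overlap (exact permutation p = 0.1, adjusted 0.225). Mcl1 to Bcl2l11, a survival protein and the BH3-only protein it is known to sequester, was 15.2, 17.38 and 11.46 in untreated libraries and 22.81, 16.11 and 24.36 at day 6. These overlapped, with a log2 difference of 0.521 (exact permutation p = 0.2, adjusted 0.36). The overlap came from day 6 replicate 2, and without it the difference was 0.70 (exact permutation p = 0.1, the smallest possible). At days 2 and 4 the differences were -0.244 and -0.221 (exact permutation p = 0.4 for both).

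Promoters were searched for GAGGAAGT, a core of the kind PU.1 binds, on both strands (the reverse is ACTTCCTC), in the RefSeq windows of 250 bases before to 50 after each start (GRCm38.p6). All 10 genes had a window, and 3 of their 16 windows held a match, beside 1052 of 32851 windows of all genes (3.2%). The stretches around the matches upstream of Bcl2a1b, Bak1 and Bad are shown with the match in capitals.
Bcl2a1b (chr9:89199099-89199158, plus strand): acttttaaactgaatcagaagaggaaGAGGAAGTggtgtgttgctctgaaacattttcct
Bak1 (chr17:27028628-27028675, minus strand): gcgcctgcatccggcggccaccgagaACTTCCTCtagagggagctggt
Bad (chr19:6942347-6942406, plus strand): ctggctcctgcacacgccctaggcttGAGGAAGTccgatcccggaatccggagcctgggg
The match lies 148 bases before the start of Bcl2a1b, 22 before that of Bak1 and 189 before 1 of 2 starts of Bad. The windows of Bcl2a1a, Bcl2a1c and Bcl2a1d hold it too. A match is a string in this window and says nothing of binding, and the windows of Mcl1, Bcl2l1, Bcl2 and Bmf do not hold these letters.

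The wider cell death pathway was followed through 51 genes in 8 lists, of which 43 were tested. At day 2 only Spi1 was called. At day 4, 9 were called higher and 7 lower, shares near the 22.1% and 20.2% of all genes. The 7 lower became 4 without untreated replicate 2, day 4 replicate 2 or day 4 replicate 3, and 11 without day 6 replicate 2. Shares of all genes under omission of a library are not given here. With upper-quartile scaling 12 were called lower at day 4 and with library totals 14, beside 26.5% and 27% of all genes. At day 6, 18 were called higher and 13 lower, beside 35.0% and 32.9% of all genes. These day 6 counts were 18 and 14 without day 6 replicate 2. With library totals they were 10 and 23, beside 18.9% and 56.1% of all genes. The same shares of all genes stand behind each list count at day 6 that follows, and some lists held only a few tested genes.

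Of the 6 tested caspases, which carry out the death program, 4 were called higher and 0 lower at day 6, against 35.0% and 32.9% of all genes. The median log2 change was 0.67, beside 0 over all genes. The initiator Casp9 went from 48.4 ± 6.12 to 92.9 ± 7.18 CPM (log2 change 0.94, adjusted p = 1.77e-05). With library totals 3 caspases were called higher and 2 lower, against 18.9% and 56.1% of all genes.

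All 5 caspase inhibitors were called higher at day 6, against 35.0% of all genes, with a median of 0.67. Birc3, an inhibitor of apoptosis with ubiquitin ligase activity, went from 29.9 ± 2.00 to 89.6 ± 12 CPM (1.58, adjusted p = 1.74e-07). Xiap, a direct caspase inhibitor, went from 113.2 ± 5.78 to 270 ± 18.8 CPM (1.25, adjusted p = 1.94e-07). Birc5, which also serves in mitosis, went from 69.6 ± 7.50 to 111.2 ± 15.7 (0.67, adjusted p = 0.000269). With library totals 2 of the 5 were called higher, against 18.9% of all genes, and Birc5 was at 0.15 and not called.

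Genes of the apoptosome and of mitochondrial release mostly fell at day 6, with 2 of 9 called higher, 6 lower (against 35.0% and 32.9% of all genes) and a median of -0.40. Apaf1, the scaffold of the apoptosome, went from 160.7 ± 3.60 to 347.7 ± 49.3 CPM (1.11, adjusted p = 1.04e-06). Cycs, which encodes cytochrome c, went from 15.8 ± 2.25 to 7.74 ± 0.547 CPM (-1.03, adjusted p = 6.46e-05). Diablo, an antagonist of caspase inhibitors, went from 62.0 ± 2.85 to 38.5 ± 3.32 (-0.68, adjusted p = 4.79e-05). Endog, a mitochondrial nuclease, fell from 5.08 ± 1.37 to 0.962 ± 0.992 CPM (-2.28, adjusted p = 0.000957). Its day 6 libraries held 1, 13 and 3 counts, with the highest in replicate 2, so the size of this fall is uncertain. Vdac2, a channel that holds BAK, was at 195.3 ± 22 and 247.3 ± 12.2 (0.34, adjusted p = 0.00556). With library totals Vdac2 was at -0.18 and not called. The list then had 1 called higher and 7 lower, against 18.9% and 56.1% of all genes. Upper-quartile scaling gave 1 higher and 6 lower, against 26.3% and 44.1%.

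**Figure D4:**
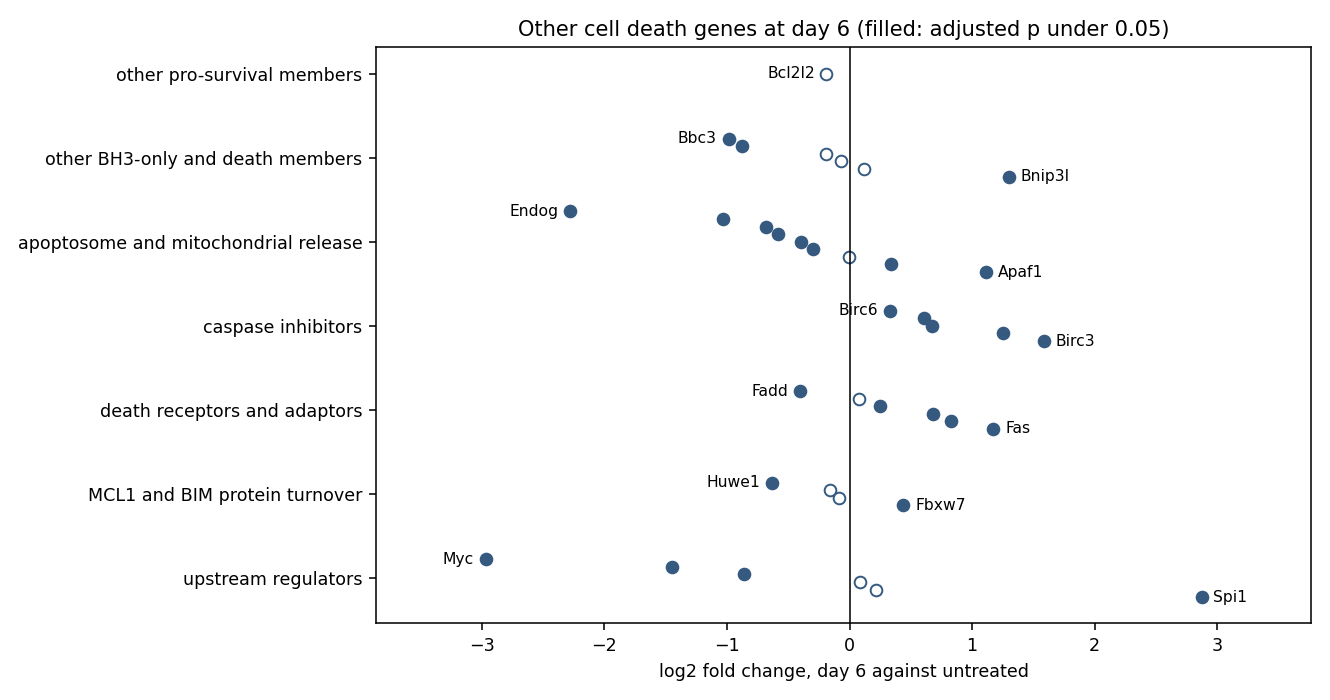
Log2 fold change at day 6 against untreated of the tested pathway genes in the lists other than caspases, with the lowest and highest of each list labelled; filled points passed an adjusted p of 0.05. Caspase inhibitors lie to the right of 0, at 5 of 5 called, and genes of mitochondrial release mostly to the left.

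Of the other BH3-only and death members, 1 of 6 tested was called higher at day 6 and 2 lower, against 35.0% and 32.9% of all genes. Bnip3l, a mitophagy receptor, went from 111.6 ± 4.69 to 274.6 ± 54.8 CPM (1.30, adjusted p = 2.25e-06). Bbc3, which encodes the p53 target PUMA, went from 13.6 ± 5.51 to 6.93 ± 2.11 CPM (-0.99, adjusted p = 0.00875), and Bnip3 from 41.3 ± 9.59 to 22.5 ± 3.41 (-0.88, adjusted p = 0.00422). Hrk and the survival gene Bcl2l10 had 0 counts in all libraries, which allows up to 3 counts in each. Bcl2l2, the only other survival gene tested, was not called at day 6 (-0.19). It was called lower there with upper-quartile scaling and library totals, where 44.1% and 56.1% of all genes were called lower. At day 4 Bcl2l2 was at -0.32 and not called. It was called lower at day 4 with RLE, upper-quartile and library-total scaling, and without day 6 replicate 2.

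Among death receptors and adaptors, 4 of 6 were called higher at day 6 and 1 lower, against 35.0% and 32.9% of all genes. With library totals 2 were called higher and 3 lower, against 18.9% and 56.1%. Fas, a death receptor, went from 17.5 ± 4.52 to 39.6 ± 7.11 CPM (1.17, adjusted p = 0.000116). Cflar, which blocks caspase-8, went from 114.4 ± 4.19 to 203.4 ± 31.5 (0.83, adjusted p = 1.63e-05). Tnfrsf1a went from 328 ± 42.8 to 525.8 ± 63.4 (0.68, adjusted p = 0.000145), and Fadd from 29.6 ± 2.48 to 22.3 ± 1.04 (-0.41, adjusted p = 0.012). With library totals Tnfrsf1a was at 0.16 and not called (adjusted p = 0.144), and Fadd lost its call without untreated replicate 3 (-0.34, adjusted p = 0.0513).

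Of 4 genes for ubiquitin enzymes known to act on MCL1 or BIM, 1 was called higher and 1 lower at day 6, no more than the share of all genes (35.0% and 32.9%). Huwe1, a ligase that marks MCL1 for destruction, went from 372.9 ± 36.2 to 241.1 ± 17.5 CPM (-0.63, adjusted p = 4.54e-05). Fbxw7, the substrate receptor of another such ligase, was at 17.5 ± 1.29 and 23.8 ± 3.27 CPM (0.44, adjusted p = 0.0147), and with library totals at -0.08. Its call was also lost with upper-quartile scaling, without untreated replicate 2 and without day 6 replicate 3 (edgeR adjusted p = 0.237, 0.0527 and 0.0693). Of 6 upstream regulators, 1 was called higher and 3 lower, against the same shares. Myc went from 276.6 ± 41.3 to 35.0 ± 13.3 CPM (-2.97, adjusted p = 2.38e-06) and Foxo1, a regulator of BH3-only genes, from 21.8 ± 3.79 to 11.8 ± 5.64 (-0.86, adjusted p = 0.018). The call of Foxo1 was lost without untreated replicate 3, day 6 replicate 1 or day 6 replicate 3 (-0.66 to -0.71, adjusted p = 0.0667 to 0.0738). Reads of Trp53, the gene labelled as lost in all groups, went from 42.7 ± 1.90 to 15.7 ± 1.61 CPM (-1.45, adjusted p = 4.57e-07). A count over a whole gene does not show which exons were read.

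The genes most like each member over the 12 libraries were found by Pearson correlation of log2 CPM, as a description over 4 groups of 3. Bcl2 was closest to Ppif, the mitochondrial permeability regulator cyclophilin D (0.993), which had 53.8 ± 1.63, 51 ± 5.16, 34.1 ± 5 and 17.3 ± 2.34 CPM over the 4 groups, and to Poglut3 (0.993). Bcl2l1 was closest to Ebi3 and Col6a4 (0.994 each), and Mcl1 was close to Cmtm6 (0.989). Bcl2l11 and Bmf shared Rnh1, the ribonuclease inhibitor (0.971 and 0.976), beside Vcan (0.971) and Myadm (0.981). Bid was closest to Dnajc10 (0.966) and Parvb (0.965), and Bad to Necap2 (0.961) and Ddi2 (0.96). Bax was closest to Itga5 (0.952) and Eps8 (0.936), and Bak1 to Mindy3 (0.968) and Tapbp (0.964). Parvb, with 7.60 ± 3.03, 8.78 ± 1.72, 29.4 ± 5.61 and 7.87 ± 2.58 CPM, had the same single high group at day 4 as Bid.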

How the data were processed

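Bulk RNA was measured in 12 libraries, 3 in each of 4 groups. The deposited files hold raw read counts per Entrez gene with a gene length, as the file headers name them. Tools and builds listed in the submitters' processing notes are featureCounts, CASAVA 1.8.2, limma 3.22.0, edgeR 3.8.2 and mm10. The aligner is not given in the sources used here, nor is the strand setting or the handling of reads that match several genes. A column kit for RNA and standard Illumina libraries were used, per the labels. Symbols were matched for 25275 identifiers from RefSeq GRCm38.p6 and 18 from GENCODE M21, and 1886 stayed unnamed (0.487% to 1.06% of counts).

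With filterByExpr, 12057 genes were kept. Under R 4.3.3, edgeR 4.0.16 scaled them by TMM and fitted the group as the only term (8 residual degrees of freedom, coefficient of variation 14.3%). Alternatives were DESeq2 1.42.0, limma 3.58.1 (voom), RLE, upper-quartile and library-total scaling, no filter or a filter of 5 CPM in 3 libraries, fits of only the groups compared, a block by replicate number, the Bcl2a1 copies summed, and omission of single libraries. RPKM used the deposited lengths. The procedure was tested on simulated data. Over 18 pairs of libraries with the same replicate number the residuals correlated by 0.00666 on average (-0.1738 to 0.2897). Pairs with different numbers were not compared, so this does not settle whether the numbers pair the libraries.

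The members and lists were chosen with earlier results of these data known. Named genes are the members, Spi1, the Bcl2a1 copies, up to 3 called genes with the largest rise and up to 3 with the largest fall at day 6 in each pathway list, genes called at day 2, and the 2 genes most like each member. Some genes that this rule names are not reported here. Erythroid and megakaryocyte marker sums were 1.319 to 4.866 and 0.7584 to 7.863 CPM over all libraries.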

Additional observations from a re-analysis of the deposited data

Results flagged for a closer look

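For Bid and Bax the step from day 4 to day 6 differed from the step from day 2 to day 4, by a test of the difference itself in the edgeR quasi-likelihood fit. Bid was higher by 0.36 on the log2 scale in the earlier step and lower by 0.37 in the later one (values 0.364 and -0.373), a difference of -0.74 ± 0.14 (adjusted p = 0.00546). The difference kept its direction and its call in all 21 alternative analyses, with adjusted p from 0.0001 to 0.0371. Bax went by 0.505 in the earlier step and -0.606 in the later one, a difference of -1.11 ± 0.21 (adjusted p = 0.00459), also called in all 21, with adjusted p from 0.000121 to 0.0313. The day 4 libraries enter both steps. All 3 day 4 libraries were above all libraries of days 2 and 6 for Bid and Bax. Bmf and Bcl2l11 were not called for this difference. Over the 21 alternatives Bmf was at -1.44 to -1.02, called in 6, and Bcl2l11 at -1.51 to -0.86, called in 1.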

How the results depend on the processing

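Of 38 called results of single members, 793 of 826 values under the alternatives kept the call and direction, 33 lost the call and 0 reversed. Library totals in place of TMM gave 3 members higher and 4 lower at day 6, against 18.9% and 56.1% of all genes. They gave 2 higher in the step from day 2 to day 4, against 10.4%. From day 4 to day 6 they gave 0 higher and 5 lower, against 11% and 51.9%, and in the difference of steps 6 lower. Upper-quartile scaling gave 2 lower at day 6, against 44.1%. For the difference of steps, leaving out a library in turn gave 2 to 8 members lower. Shares of all genes for the difference of steps under these alternatives are not given here. The cause of these moves was not tested.

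Values near 0 changed sign when a library was left out, and are given as ranges over the single omissions. At day 2 these were Bcl2 (-0.15 to 0.12), Bid (-0.08 to 0.02), Bax (-0.00 to 0.14) and the log2 ratio of Bcl2 to Bax (-0.28 to 0.12). At day 6 they were Bid (-0.09 to 0.01), Bad (-0.04 to 0.10) and Bax (-0.15 to 0.11), and from day 4 to day 6 Bmf (-0.35 to 0.01) and Bak1 (-0.09 to 0.01). Bad at day 6 was also at -0.20 with upper-quartile scaling and -0.46 with library totals. With library totals the difference of steps for Bcl2l1 was -0.03, and at day 6 Vdac2 was at -0.18 and Fbxw7 at -0.08.

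With the replicate number as a block, the members called were 7 higher and 1 lower at day 4 and 5 higher and 1 lower at day 6. Shares of all genes under the block are not given here. The block ended the day 4 call of Bad (0.27, adjusted p = 0.0629) and no other member's call. From day 2 to day 4, Bcl2l1 lost its call without day 2 replicate 1 or 2 or day 4 replicate 2 (0.39 to 0.43), and Bcl2l11 without day 2 replicate 1 or 3 or day 4 replicate 2 or 3 (0.77 to 0.96). The pathway alternatives, and the class sums and summed Bcl2a1 copies without day 6 replicate 2, were chosen after seeing the data. Bcl2a1b is limited by depth, at 1 to 16 counts per library.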
